A study of Mus musculus with 6 samples.

Results

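The cells described here were monocytes and macrophages that carried RNA for arginase 1 (Arg1) or inducible nitric oxide synthase (Nos2). A cell was taken as a member when its raw unique molecular identifier (UMI) counts, which count captured RNA molecules, met all of the following conditions. It held at least 1 UMI of Csf1r, the receptor for the growth factor of the macrophage lineage, and fewer than 5 UMIs of the complement genes C1qa, C1qb and C1qc together. It held no UMI of Ace or Adgre4, which mark patrolling monocytes, none of Cd3e, Cd3d, Ncr1 or Siglech, which mark T cells, natural killer cells and plasmacytoid dendritic cells, and not Ccr7 together with Fscn1, which mark migratory dendritic cells. It held at least 1 UMI of Arg1 or Nos2. Of 6364 cells kept, 1065 had Csf1r, 892 of these also passed the C1q limit, 570 the limit on Ace and Adgre4, and 511 the other lineage limits. These 511 cells are called gate cells below, and 268 of them had Arg1 or Nos2 and were the members.

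The study compared samples labelled Empty vector and Bmal1 WT, the wild-type form of Bmal1, a core transcription factor of the circadian clock. The labels give the mouse melanoma line YUMM2.1 as the source of all samples, and do not say whether the material was cultured or came from tumours. Each group was 1 droplet library of the 10x Genomics 3' chemistry (version 3.1) in which 3 replicates had been marked with hashtag antibodies: h1, h7 and h8 in Empty vector, and h3, h5 and h9 in Bmal1 WT. A further group, Bmal1 bHLH, was not used, because each of its 3 parts was a byte-for-byte copy of the Bmal1 WT part. The labels do not say what the replicates behind the hashtags were, so p-values measure the spread between hashtags, and group and library cannot be told apart.

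Arginase 1 splits arginine into ornithine and urea, and inducible nitric oxide synthase turns the same amino acid into nitric oxide and citrulline. In textbook accounts Nos2 is induced in macrophages by interferon and bacterial products, whereas Arg1 is induced by type 2 cytokines, lactate and low oxygen. Monocytes that enter inflamed tissue or tumours can express either enzyme, and both are tied to suppression of T cells through loss of arginine or release of nitric oxide.

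The 268 members comprised 188 cells of Empty vector and 80 of Bmal1 WT. A single hashtag could be assigned to 250 of them, with 86 in h1, 23 in h7, 65 in h8, 50 in h3, 14 in h5 and 12 in h9, whereas 16 carried several hashtags and 2 carried none. Over all kept cells the median depth was 5094 UMIs in Empty vector and 7570.5 in Bmal1 WT, and the median member held 8412.5 UMIs. The libraries shared 5 cell barcodes, 0 of which belonged to members. Gate cells without Arg1 or Nos2, of which there were 243, had a median of 8263 UMIs and were the closest comparison cells. All other cells with Csf1r numbered 797, with a median of 9768 UMIs, and included 159 cells with 5 or more C1q UMIs (C1q-high cells) and 312 with Ace or Adgre4.

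Since Arg1 and Nos2 chose the members, their levels are a description. Arg1 was present in 265 of the 268 members and Nos2 in 58, and 55 members held both. Only 3 members had Nos2 without Arg1, so that 94.8% of the members with Nos2 also had Arg1. Arg1 lies at chr10:24915221-24927484 and Nos2 at chr11:78920787-78960254 (GRCm38, GENCODE M21, whole genes). The median member held 20 Arg1 UMIs, with quartiles of 6.75 and 47 and a highest value of 484. Nos2 was sparse, with a median of 2 UMIs among the members that had it and a highest value of 35. The members were thus mostly Arg1 cells, of which some also carried Nos2.

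Summed over the members of each hashtag, Arg1 stood at 3008 counts per 1000000 UMIs (CPM) in h1, 4694 in h7, 5265 in h8, 3651 in h3, 4350 in h5 and 6841 in h9. Nos2 stood at 83.2 CPM in h1, 4.14 in h7, 164 in h8, 100.1 in h3, 292 in h5 and 91.2 in h9. Arg1 was therefore high in every hashtag, while Nos2 was nearly absent from the members of h7, none of which held both genes. At the threshold, 25 members held a single UMI of the pair of genes and 12 held 2 UMIs, whereas 185 held 10 or more. Just inside the C1q limit lay 12 members with 3 or 4 C1q UMIs, and just outside it lay 4 cells with 5 UMIs that met every other condition. In all, 22 cells with 5 to 9 C1q UMIs, 94 cells with 10 or more, and 82 cells with 1 UMI of Ace or Adgre4 would otherwise have been members.

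Arg1 was not confined to the members. A UMI of Arg1 was found in 81.8% of C1q-high cells (95% exact binomial interval 74.9 to 87.4) and in 26.0% of Csf1r cells with Ace or Adgre4 (21.2 to 31.2). In T cells, which should lack the gene and had a median of 5085 UMIs, the share was 2.19% (1.52 to 3.05). Nos2 was found in 9.43% of C1q-high cells (5.38 to 15.1), 2.56% of cells with Ace or Adgre4 (1.11 to 4.99) and 0.0645% of T cells (0.00163 to 0.359). These intervals cover counting error only. The share of T cells is read as the background of free RNA, and the shares of both genes in each of the macrophage classes lay above it.

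Whether Nos2 went with Arg1 was asked among all gate cells, where neither gene is required. A Nos2 UMI was found in 20.8% of the 265 gate cells with Arg1 (16.0 to 26.1) and in 1.22% of the 246 without it (0.252 to 3.52). The difference by hashtag was 22.1 percentage points in h1, -3.57 in h7, 15.5 in h8, 23.6 in h3, 42.9 in h5 and 33.3 in h9. It was positive in 5 of 6 hashtags, with a mean of 22.3 ± 15.9 points (SD, n = 6). Arg1 and Nos2 are the genes that chose the members, so this is a description with no test. In cells of at least 2000 UMIs, thinned to 2000, the mean was 15.7 points. The negative hashtag, h7, rested on 1 Nos2 cell. Binned by Arg1, Nos2 was detected in 1.22% of gate cells with no Arg1 UMI, 9.80% of those with 1 to 4, 16.7% with 5 to 19, 27.4% with 20 to 49 and 27.0% with 50 to 484. The share rose over the low bins and was level over the highest pair, in cells whose median depth also differed, from 6310.5 UMIs in the middle bin to 12335 in the top bin.

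**Figure D1:**
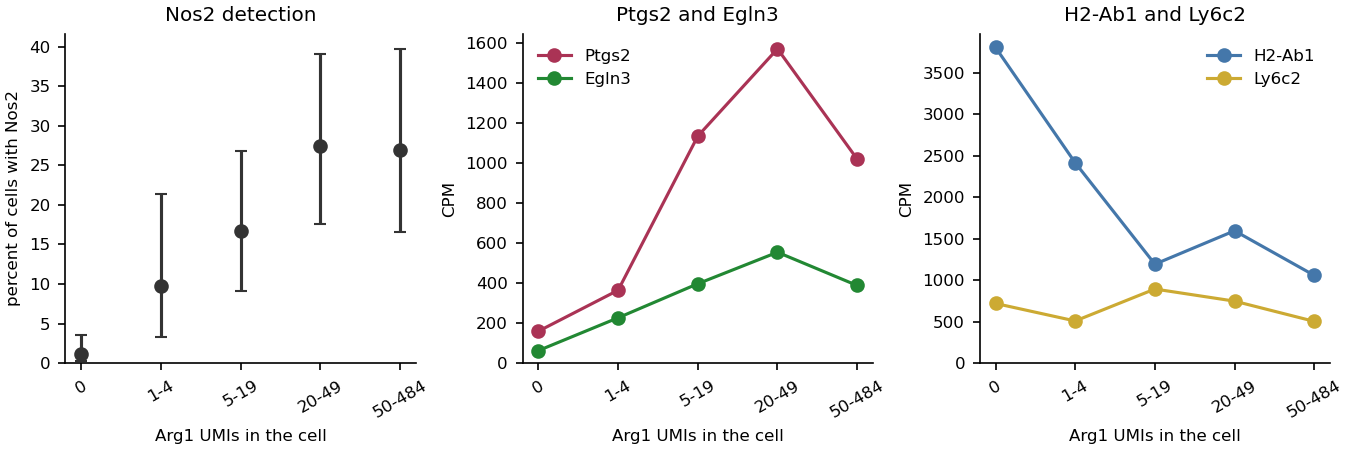
Gate cells of both libraries grouped by their Arg1 UMIs, with the share that held a Nos2 UMI (percent, bars show 95% exact binomial intervals) and the pooled levels of Ptgs2, Egln3, H2-Ab1 and Ly6c2 in CPM. Nos2 detection went from 1.22% to 27.0%, Ptgs2 and Egln3 peaked in the bin with 20 to 49 Arg1 UMIs at 1569 and 554 CPM, and H2-Ab1 fell from 3804 to 1058 between the outer bins.

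The same bins described other genes, pooled over hashtags and without a test. Ptgs2, the inducible cyclooxygenase, stood at 160 CPM in gate cells with no Arg1, and at 364, 1133, 1569 and 1019 in the successive bins. Egln3, an oxygen-sensing prolyl hydroxylase that is itself induced by low oxygen, followed the same course with 63.1, 227, 397, 554 and 388. H2-Ab1, a chain of the MHC class II molecule that presents antigen to T cells, went the other way, at 3804, 2415, 1193, 1595 and 1058. Ly6c2, the marker of classical monocytes, had no such order, at 720, 509, 894, 748 and 504. The graded genes changed most between cells without Arg1 and cells with 5 to 19 UMIs of it.

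The other genes of the label, Ptgs2, Cxcl3, Slfn4 and Clec4e, were not part of the rule. They had been proposed with results of these data known, however, and are not independent evidence for the label. A UMI of Ptgs2 was found in 169 members (63.1%), of Clec4e in 148 (55.2%), of Slfn4 in 108 (40.3%) and of Cxcl3 in only 19 (7.09%). Ptgs2, Slfn4 and Clec4e were thus spread over many members, while Cxcl3 came from few.

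Ptgs2 in the members stood at 1297 CPM in h1, 364 in h7, 1121 in h8, 974 in h3, 1421 in h5 and 1333 in h9. In gate cells without Arg1 or Nos2 it stood at 172, 12.2, 251, 131, 70.3 and 406 in the same order. The members were higher in every hashtag, by 3.14 ± 0.30 on the log2 scale (SE, edgeR quasi-likelihood test with hashtag as a block, adjusted p = 3.35e-05). Here and below, a log2 difference is given relative to the median gene of the same comparison, since total-count scaling put that median at -0.23 in this comparison. The SE and the p-values belong to the difference before that median was subtracted. Near the threshold, a printed rise is therefore less easily called than a printed fall of the same size.

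Slfn4, an interferon-inducible gene of the Schlafen family that is known from activated myeloid cells, stood at 224, 16.5, 353, 133, 174 and 210 CPM in the members of h1, h7, h8, h3, h5 and h9. In the comparison cells it stood at 53.4, 3.06, 114, 23.3, 15.3 and 0. It was higher in the members of every hashtag, by 2.64 ± 0.33 (adjusted p = 0.000278), although the members of h7 were lower than the comparison cells of 3 other hashtags.

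Clec4e, which encodes the receptor Mincle for mycobacterial glycolipids and dead cells, stood at 318, 20.7, 305, 282, 655 and 386 CPM in the members. It stood at 140, 12.2, 170, 154, 58.1 and 224 in the comparison cells and was higher in the members of every hashtag, by 1.54 ± 0.29 (adjusted p = 0.00804). For Ptgs2, Slfn4 and Clec4e the lowest members were those of h7.

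Cxcl3, a chemokine that attracts neutrophils, stood at 41.6, 4.14, 688, 61.7, 7.90 and 3999 CPM in the members and at 3.45, 0, 3.92, 0, 0 and 76.5 in the comparison cells. It had the largest fitted difference among the named genes that rose in every hashtag, 6.16 ± 0.37 (adjusted p = 7.35e-07), but 54.9% of its UMIs in the members' sums came from 1 cell. The range between hashtags was correspondingly wide, with h9 far above the others.

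**Figure D2:**
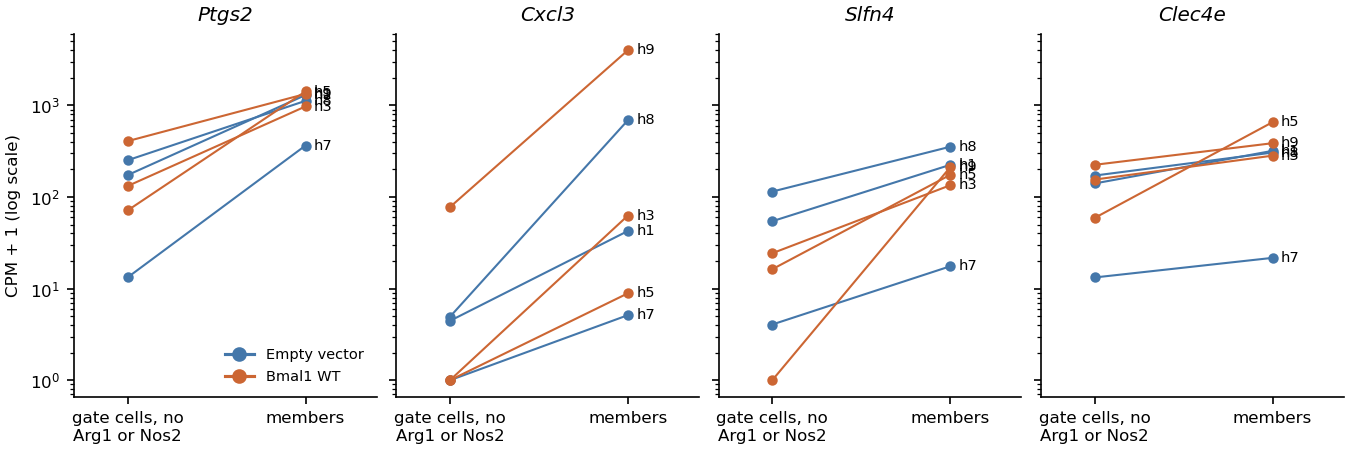
Levels of Ptgs2, Cxcl3, Slfn4 and Clec4e in the 6 hashtags, with the members joined by a line to the gate cells without Arg1 or Nos2 of the same hashtag, in CPM plus 1 on a log axis (blue, Empty vector, orange, Bmal1 WT). Every line rises towards the members, and for Ptgs2, Slfn4 and Clec4e the members of h7 are the lowest, at 364, 16.5 and 20.7 CPM.

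Markers of other cell types were used to check the label. Of the classical monocyte markers Ccr2 was detected in 231 members (86.2%), Plac8 in 253 (94.4%), Itgam in 250 (93.3%) and Ly6c2 in 178 (66.4%). Of the tissue macrophage markers Apoe was detected in 187 members (69.8%), while Adgre1 was found in 79 (29.5%), Folr2 in 2 and Gas6 in 0. The neutrophil genes S100a9, Retnlg, Ly6g and Camp, the B cell genes Cd79a and Ms4a1, the dendritic cell gene Clec9a, the T cell gene Cd8a and the melanoma gene Sox10 were all at 0 UMIs in the 268 members. Over the lists, 4 of 10 neutrophil, 3 of 4 B cell and 1 of 8 dendritic markers were at 0. The same held for 1 of 5 T cell and 1 of 4 melanoma markers, and the others had UMIs. All 4 natural killer, 3 endothelial and 5 fibroblast markers had UMIs, and all 4 mast cell or basophil markers were at 0. Summed, the T cell, natural killer, endothelial and fibroblast markers had medians of 6.76, 8.52, 27.5 and 5.9 CPM over the hashtags. Summed over its list, the classical monocyte markers had a median of 14557 CPM over the hashtags in the members. The median was 11385 in gate cells without Arg1 or Nos2 and 16139 in Csf1r cells with Ace or Adgre4. The members thus carried markers of monocytes and of macrophages, and neither set was particular to them.

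The comparison cells were more mixed. The summed dendritic cell markers ranged from 330 to 1178 CPM (median 657) over the hashtags in gate cells without Arg1 or Nos2, against 118 to 563 (median 241) in the members, and 5 of the 6 dendritic markers tested were lower in the members. The summed neutrophil markers ranged from 42.0 to 758 (median 123) in the comparison cells and from 15.8 to 1189 (median 67.8) in the members. Of the 1189 CPM of h3, Mmp9 made up 1084, and 97.7% of its UMIs in the members came from 1 cell, while the next highest hashtag stood at 145. The summed melanoma markers ranged from 0 to 581 (median 5.6) in the comparison cells and from 3.6 to 7.9 (median 5.4) in the members. The part of these other cells in the differences below was not tested.

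Against the gate cells without Arg1 or Nos2, 7366 genes were tested by edgeR within hashtags, and 393 were higher in the members (5.34% of those tested) and 664 lower (9.01%). With TMM scaling, which trims the most extreme genes before libraries are matched, the split was 558 higher and 386 lower, so the balance between the directions depended on the scaling. The calls also rested on the hashtags with the most members, numbering 604 in all without h1 and 641 without h8. Among the genes of the lists, TMM scaling lost the falls of Cxcl10, Ptger4, Il1r2, H2-DMa, Spi1 and Itgax and added rises of Il6, Slfn1, Hsp90aa1, Dnajb1 and Ccr2. The members were higher at 22 of 23 hypoxia and glycolysis genes and 14 of 21 cytokine and chemokine genes, and lower at 6 of 7 MHC class II genes and 5 of 6 dendritic cell genes. The sections that follow take the gene lists by role. The lists were drawn up with earlier results of these data known, and list counts are read against the shares just given.

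The hypoxia and glycolysis list rose most uniformly. Of its 23 genes, 22 rose and 0 fell, with a median log2 difference of 1.52 against 0 for the median of all genes tested, and the exception was the hexokinase gene Hk1 (0.63 ± 0.29, adjusted p = 0.376). Summed over the list, the members held 28574 CPM in h1, 16081 in h7, 27707 in h8, 29104 in h3, 32149 in h5 and 31848 in h9. The comparison cells held 7512, 7741, 10589, 16925, 13332 and 9235. The groups overlapped only in that the members of h7 lay below the comparison cells of h3.

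Egln3 in the members stood at 464 CPM in h1, 62.0 in h7, 469 in h8, 494 in h3, 221 in h5 and 337 in h9, against 58.6, 21.4, 78.4, 103, 18.3 and 23.5 in the comparison cells (log2 difference 2.95 ± 0.23, adjusted p = 1.07e-05). Hilpda, a lipid droplet protein induced by hypoxia, stood at 942, 186, 1055, 744, 1255 and 779 against 82.7, 58.2, 214, 247, 202 and 118 (2.65 ± 0.23, adjusted p = 1.67e-05). Both genes were higher in the members of all 6 hashtags, and in both the members of h7 were the lowest.

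Adm, which encodes the vasodilator peptide adrenomedullin, rose by 5.96 ± 0.50 (adjusted p = 1.67e-05) from levels at or near 0 in the comparison cells, and was detected in 39 members with a hashtag but at 0 UMIs in those of h7. Vegfa, the growth factor of blood vessels, rose by 1.92 ± 0.18 (adjusted p = 4.35e-05) with 553 to 1510 CPM in the members and 156 to 507 in the comparison cells. The glucose transporter gene Slc2a1 rose by 1.79 ± 0.17 and the mitophagy gene Bnip3 by 2.08 ± 0.28. The glycolytic enzyme genes rose by less, from 0.80 ± 0.15 for Pkm and 0.92 ± 0.14 for Ldha to 1.48 ± 0.14 for Pgk1. Spp1, which encodes the secreted matrix protein osteopontin, was the most abundant of the list.

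Spp1 stood at 6529, 3073, 2938, 7800, 9127 and 10041 CPM in the members of h1, h7, h8, h3, h5 and h9. It stood at 367, 24.5, 147, 4058, 1862 and 141 in the comparison cells, and the difference was 4.14 ± 0.59 (adjusted p = 0.000582). The comparison value of h3 overlapped the lower members. In the comparison cells 63.6% of all Spp1 UMIs came from 1 cell.

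Hmox1, the heme oxygenase gene, rose by 2.84 ± 0.32 and stood at 103 to 702 CPM in the members and 9.18 to 315 in the comparison cells (adjusted p = 0.000122). Hif1a, the gene of the oxygen-regulated transcription factor itself, rose by a smaller 0.78 ± 0.13 (adjusted p = 0.011). Against all other Csf1r cells, a comparison that shares the members' sums, 23 of the 23 genes of the list rose with a median of 1.32. The background of that comparison was 374 of 9221 genes higher (4.06%) and 1001 lower (10.9%), or 654 higher and 549 lower with TMM scaling, with 844 calls in all without h1 and 837 without h8.

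**Figure D3:**
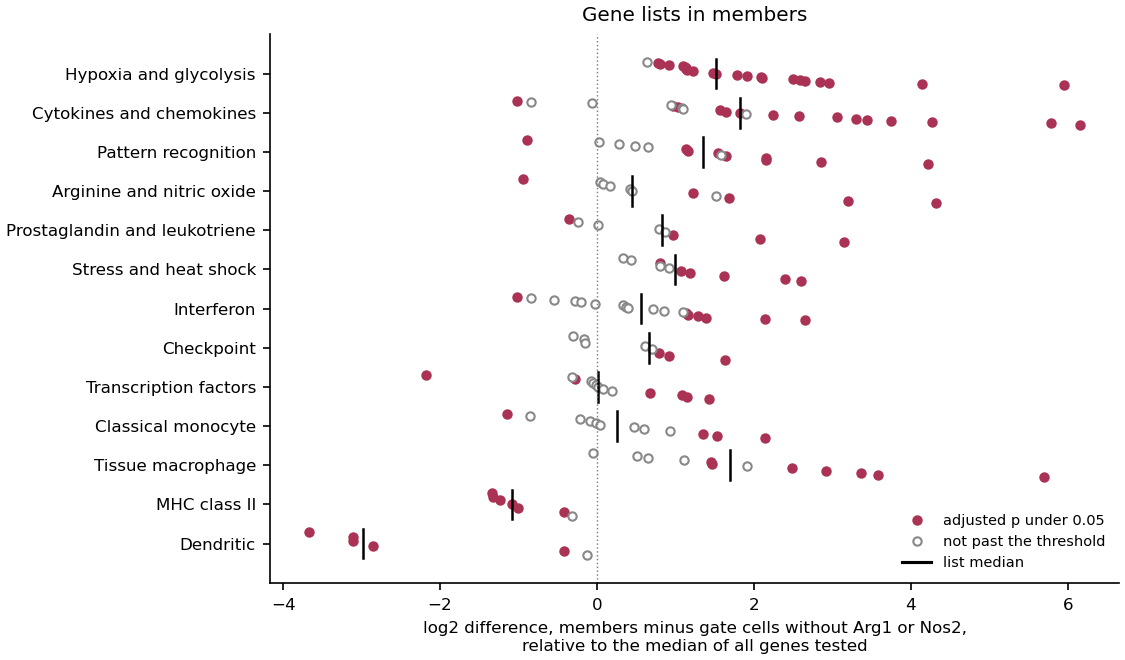
Log2 difference between members and gate cells without Arg1 or Nos2 for each tested gene of the lists, relative to the median gene, with 1 point a gene and filled points for genes with an adjusted p under 0.05 and a black bar at each list's median. All 23 hypoxia and glycolysis genes lie above 0, with a median of 1.52, and the 7 MHC class II genes lie below 0, with a median of -1.08.

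Promoter sequence is shown for 3 of these genes, a label marker, the hypoxia gene with the smallest adjusted p in the list and the chemokine with the largest fold change, to display the letters that the hypoxia-inducible factors bind. The core searched was ACGTG or GCGTG on either strand, which overlaps the E-box CACGTG, the core bound by Bmal1 with its partner Clock. The windows are the 250 bases before the start site in RefSeq (GRCm38.p6), read 5′ to 3′ on the gene's strand, with matches to the core in capitals.
Ptgs2, chr1:150099781-150100030, plus strand: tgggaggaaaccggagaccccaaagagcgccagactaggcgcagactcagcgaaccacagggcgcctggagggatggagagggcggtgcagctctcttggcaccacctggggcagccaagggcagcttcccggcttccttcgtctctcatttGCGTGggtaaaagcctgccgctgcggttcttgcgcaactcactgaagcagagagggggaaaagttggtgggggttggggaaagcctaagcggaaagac
Egln3, chr12:54203875-54204124, minus strand: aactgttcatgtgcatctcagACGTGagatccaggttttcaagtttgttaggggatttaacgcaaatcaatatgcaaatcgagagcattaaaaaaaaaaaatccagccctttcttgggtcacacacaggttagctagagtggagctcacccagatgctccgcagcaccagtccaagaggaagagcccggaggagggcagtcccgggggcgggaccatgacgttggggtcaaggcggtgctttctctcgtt
Cxcl3, chr5:90785851-90786100, plus strand: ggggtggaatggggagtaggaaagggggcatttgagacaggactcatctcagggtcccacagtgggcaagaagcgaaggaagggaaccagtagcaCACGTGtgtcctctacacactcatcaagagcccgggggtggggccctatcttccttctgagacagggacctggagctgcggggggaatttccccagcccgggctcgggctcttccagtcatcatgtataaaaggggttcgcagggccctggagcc
The window of Ptgs2 held 1 match, 98 bases before the start, and that of Egln3 held 1, at 229 bases. In Cxcl3 the pair of overlapping matches, at 155 and 154 bases, formed the full E-box, and the NF-kB motif was found on both strands at 73 and 72 bases. Of 32851 promoter windows of the same length, 38.6% held the hypoxia core, 6.02% the E-box and 7.25% the NF-kB motif. A match is a description of the letters and not a site shown to be bound. The windows of the label markers Clec4e and Slfn4 held 2 and 0 matches to the hypoxia core. Of the hypoxia genes also searched, Spp1 held 0 matches in each of its windows, and Hilpda held 0 in the first window and 3 in the second. The window of Inhba held 1.

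Among cytokines and chemokines, 14 of 21 tested genes rose and 1 fell, with a median of 1.82. Ccl2, the ligand that draws Ccr2-bearing monocytes, stood at 2339, 261, 2362, 2327, 2637 and 3410 CPM in the members of h1, h7, h8, h3, h5 and h9. It stood at 1036, 36.7, 776, 359, 116 and 82.4 in the comparison cells (3.06 ± 0.43, adjusted p = 0.000558). The members were higher in all 6 hashtags, and h7 was low in both classes.

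The related monocyte attractants Ccl7 and Ccl12 rose by 4.27 ± 0.49 and 3.75 ± 0.47, though Ccl7 was near 0 in h7 (4.14 against 3.06 CPM) and 40.9% of the Ccl12 UMIs came from 1 cell. Ccl3, an attractant of monocytes and lymphocytes, rose by 3.29 ± 0.41 with 226 to 584 CPM in the members and 5.89 to 110 in the comparison cells. The neutrophil attractants Cxcl2 and Cxcl1 rose by 1.82 ± 0.30 and 5.79 ± 0.66, but Cxcl1 was found in 10 members with 52.3% of its UMIs in 1 cell. The interleukin-1 genes Il1a and Il1b rose by 2.57 ± 0.33 and 1.03 ± 0.15, and so did Il1rn, which encodes their receptor antagonist, by 1.64 ± 0.23.

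Tnf, the tumour necrosis factor gene, rose by 2.24 ± 0.31 (adjusted p = 0.000635), from 11.8 to 24.1 CPM in the comparison cells to 37.2 to 232 in the members, which did not overlap. Il6 missed the threshold (1.90 ± 0.53, adjusted p = 0.0504). The gene that fell was Cxcl10, an interferon-induced attractant of T cells, at 878, 153, 520, 369, 7.90 and 0 CPM in the members against 712, 392, 1219, 1078, 342 and 11.8 (-1.02 ± 0.36, adjusted p = 0.0301). It was lower in the members of 5 hashtags and higher in h1. Cxcl9, of the same family, had a value of -0.85 ± 0.59 that did not pass (adjusted p = 0.25).

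In the arginine and nitric oxide list, 4 of 11 tested genes rose and 1 fell, beyond Arg1 and Nos2 themselves. Slc7a2, which encodes the arginine transporter CAT2, stood at 208, 273, 403, 209, 347 and 400 CPM in the members of h1, h7, h8, h3, h5 and h9 and at 6.89, 3.06, 64.7, 18.7, 9.17 and 0 in the comparison cells. The groups did not overlap, and the difference was 4.32 ± 0.38 (adjusted p = 1.67e-05) over 129 members with a UMI.

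Arg2, the mitochondrial arginase, rose by 3.20 ± 0.54 and Ass1, which rebuilds arginine from citrulline, by 1.22 ± 0.27. Slc7a11, the cystine importer, rose by 1.68 ± 0.35 (adjusted p = 0.0118). Odc1, which turns the ornithine made by arginase into polyamines, fell by 0.94 ± 0.23 (adjusted p = 0.00369), with 62.0 to 182 CPM in the members and 141 to 290 in the comparison cells. With cells thinned to 2000 UMIs its value was 0.06 and it was not called (adjusted p = 0.94). Gch1, which makes the cofactor of nitric oxide synthase, and the oxidase gene Cybb were at 0.16 ± 0.23 and 0.08 ± 0.16 and did not pass. Asl, which acts with Ass1 in rebuilding arginine, did not pass either (0.03 ± 0.31, adjusted p = 0.708).

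Of the prostaglandin and leukotriene list, 3 of 8 genes rose and 1 fell. Beside Ptgs2, those that rose were the constitutive cyclooxygenase Ptgs1 (2.08 ± 0.52, adjusted p = 0.0297) and the thromboxane synthase Tbxas1 (0.97 ± 0.22, adjusted p = 0.0381). Ptger4, a receptor for prostaglandin E2, fell by 0.35 ± 0.17 (adjusted p = 0.0387, for the value before the median was subtracted), and TMM scaling lost this call. Ptgs1 stood at 0 CPM in the members of h5, so its rise was not seen in every hashtag. Against all other Csf1r cells, 1 of 12 tested genes of the list rose and 2 fell, or 1 and 1 with TMM scaling.

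In the pattern recognition list 8 of 14 tested genes rose and 1 fell, with a median of 1.35. Clec4d, whose product pairs with that of Clec4e, rose by 2.86 ± 0.33 and stood at 101, 4.14, 200, 88.4, 268 and 295 CPM in the members against 31.0, 0, 29.4, 16.3, 6.11 and 64.7. Msr1, a scavenger receptor, rose by 2.15 ± 0.25, the endotoxin receptor Tlr4 by 2.15 ± 0.35 and its co-receptor Cd14 by 1.65 ± 0.19. Trem1, an amplifier of inflammatory signals, rose by 1.16 ± 0.19 (adjusted p = 0.00482).

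Inhba, which encodes the activin A subunit and had been placed in that list, rose by 4.22 ± 0.34 (adjusted p = 1.07e-05). It stood at 178, 20.7, 463, 138, 584 and 1137 CPM in the members and 12.1, 0, 45.1, 18.7, 33.6 and 5.89 in the comparison cells. The gene that fell was Il1r2, the decoy receptor for interleukin-1 (-0.89 ± 0.34, adjusted p = 0.0395). Tlr2 and Nlrp3 did not pass, at 0.29 ± 0.24 and 0.48 ± 0.22.

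The MHC class II list moved the other way, with 6 of 7 genes lower and 0 higher, at a median of -1.08. H2-Ab1 stood at 684, 3065, 1533, 1591, 1792 and 856 CPM in the members of h1, h7, h8, h3, h5 and h9 and at 3493, 6651, 3431, 4147, 3127 and 3526 in the comparison cells. The members did not reach the lowest comparison value in any hashtag, and the difference was -1.24 ± 0.17 (adjusted p = 9.16e-05). Ciita, the master regulator of the class II genes, fell by 1.34 ± 0.24 and the invariant chain Cd74 by 1.0 ± 0.14. Against all other Csf1r cells 7 of 7 fell, with a median of -0.77, or 6 with TMM scaling.

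Dendritic cell genes fell with them, as 5 of 6 tested did (median -2.98): Flt3, the receptor for the growth factor of dendritic cells (-3.67 ± 0.44), Zbtb46, Cd209a, Ccl22 and Itgax. Flt3 stood at 0 to 5.20 CPM in the members and 16.3 to 125 in the comparison cells. The genes with the largest falls seen in every hashtag included Epcam, Cldn1, Cdh17, Fgfr1, Sept3, Itgae, Ly75, Plet1 and Asb2, of which Itgae and Ly75 encode surface proteins of dendritic cells. Epcam was found in 1 member with a hashtag and Plet1 in 7. Their fitted log2 values, from -4.67 ± 0.59 for Epcam to -3.79 ± 0.67 for Asb2, depend on the prior count where the members were at 0. The summed dendritic cell markers overlapped between members and comparison cells over the hashtags, in the ranges given above.

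Macrophage genes rose against the gate cells without Arg1 or Nos2, at 7 of 12 tissue macrophage markers and 0 lower (median 1.69). Apoe, the lipid carrier, stood at 1402, 1671, 440, 651, 679 and 2049 CPM in the members and at 288, 113, 214, 124, 85.6 and 135 in the comparison cells, which did not overlap (2.91 ± 0.31, adjusted p = 7.41e-05). The lipid receptor gene Trem2 rose by 2.49 ± 0.37 and Gpnmb, a lysosomal and surface glycoprotein, by 3.57 ± 0.44. Pf4 was also called, but it rested on 6 members. The rise was not particular to the members, since against all other Csf1r cells 2 of the 12 were higher and 1 lower. Summed, these markers had a median over hashtags of 3014 CPM in the members and 1113 in the gate cells without Arg1 or Nos2. The median was 5306 in C1q-high cells and 2929 in cells with Ace or Adgre4. Among classical monocyte markers 3 of 12 rose (Fn1, the fibronectin gene, by 2.14 ± 0.24, Itgam by 1.53 ± 0.18 and F13a1 by 1.35 ± 0.22) and Hp fell by 1.15 ± 0.31. Ly6c2 (-0.09 ± 0.28), Ccr2 (0.93 ± 0.24) and Lyz2 (-0.22 ± 0.19) did not pass.

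Of the other genes with the largest rises in every hashtag, Lpl, the lipoprotein lipase that frees fatty acids, rose by 4.21 ± 0.30 with 166 to 1137 CPM in the members and 3.06 to 79.3 in the comparison cells. F7, which encodes coagulation factor VII, rose by 5.13 ± 0.59, the chemokine gene Cxcl14 by 4.69 ± 0.56, the cytochrome oxidase subunit gene Cox4i2 by 4.67 ± 0.69 and Tmem119, known as a marker of microglia, by 5.20 ± 0.68. These 4 were sparse, with UMIs in 28 to 33 members with a hashtag.

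Against all other Csf1r cells, the genes with the largest rises in every hashtag were Cxcl3, Gpnmb, Inhba, Ccl2, Tmem119, Spp1, Sdc1, Cox4i2, Cxcl14 and Pgf, of which Sdc1 and Pgf had not been among the leading genes above. Sdc1, which encodes the surface proteoglycan syndecan 1, stood at 205, 66.2, 232, 80.1, 158 and 154 CPM in the members of h1, h7, h8, h3, h5 and h9 and at 21.2, 7.18, 60.2, 23.9, 48.7 and 19.0 in the other Csf1r cells (2.62 ± 0.23, adjusted p = 2.7e-06). The members did not overlap the other cells. Pgf, the placental growth factor gene, rested on 12 members. Among the label markers, Ptgs2 rose by 2.0 ± 0.18 and Slfn4 by 2.04 ± 0.17 in every hashtag, whereas Clec4e (1.40 ± 0.23, adjusted p = 0.00285) was lower in the members of h7, at 20.7 against 44.3 CPM. The largest falls were in genes that the other cells held at low levels, several of them lymphoid or dendritic. They were Cd8a, Gimap7, Cd8b1, Clec9a, Tox, Gata3, Klri2, Lilra5 and Lgi4, all at 0 UMIs in the members with a hashtag, and Cd3g, with UMIs in 1 of them. Part of that contrast follows from the rule, which removed cells with T cell genes from the members alone. The rule likewise removed C1q-high cells and cells with Ncr1, Siglech, Ace or Adgre4 from the members alone.

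The interferon list was split. It had 6 of 18 genes higher and 1 lower, with a median of 0.56. Rsad2, an antiviral enzyme, rose by 2.14 ± 0.30, and Isg15, Ifit1, Ifit2 and Oasl1 rose by 1.29, 1.15, 1.39 and 1.13, beside Slfn4. Irf1 and Irf7, which regulate the response, were at -0.21 ± 0.23 and 0.33 ± 0.30 and did not pass. Rsad2 in the members of h7 was below the comparison cells (37.2 against 52.0 CPM), whereas it was above them in the other 5 hashtags. Against all other Csf1r cells the balance of calls in this list was reversed, with 2 of 18 genes higher and 5 lower. With TMM scaling these counts were 3 and 5, and 12 of the 18 lay above the median gene.

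In the checkpoint list 3 of 8 rose: Cd274, which encodes PD-L1 (1.63 ± 0.24, adjusted p = 0.00154), Sirpa (0.91 ± 0.16) and Lgals9 (0.79 ± 0.17). Cd274 stood at 404, 186, 553, 342, 300.0 and 140 CPM in the members and 81.0, 162, 145, 182, 122 and 41.2 in the comparison cells. Among stress genes 6 of 10 rose, with Hspa1a and Hspa1b at 2.60 ± 0.56 and 2.39 ± 0.44, and Ddit3, which responds to stress of the endoplasmic reticulum, at 1.62 ± 0.26. These heat shock and immediate early genes can also be induced while cells are prepared, and their part in the other differences was not tested.

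Of the transcription factors, 4 of 13 rose and 2 fell, whereas 2 rose and 4 fell against all other Csf1r cells. With TMM scaling the latter counts were 3 and 2. The values here are those against the gate cells. Cebpb, a regulator of emergency myelopoiesis, rose by 1.42 ± 0.19 and was the most abundant, at 3228 to 6355 CPM in the members. Irf4, which is high in some dendritic cells, fell by 2.18 ± 0.41. Of the 6 clock genes with enough UMIs to be tested, Nfil3 (1.10 ± 0.24, adjusted p = 0.0285) and Rora (2.28 ± 0.59, adjusted p = 0.0314) rose, and Clock (0.31 ± 0.33), Per1 (0.28 ± 0.17), Cry1 (0.27 ± 0.38) and Bhlhe40 (0.67 ± 0.19) did not pass.

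The comparison of Arg1 with Nos2 cells could not be made between members with 1 gene alone, because only 3 had Nos2 without Arg1. Members with both genes were compared with members that had Arg1 alone, a comparison added after seeing the data. There were 53 cells with both in h1, h8, h3, h5 and h9 (19, 11, 13, 6 and 4) and 172 with Arg1 alone in the same hashtags, and h7 had none of the former. Of 4848 genes tested, 25 were higher (0.516%) and 35 lower (0.722%) in the members with both, or 49 and 34 with TMM scaling. The count was sensitive to single hashtags, falling to 7 without h1, 3 without h3 and 23 without h5.

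Hypoxia genes were again on the higher side. All 23 lay above the median gene, with a median of 0.85, and 5 rose (11 with TMM scaling). Ero1l, the oxidase that forms disulfide bonds in the endoplasmic reticulum, stood at 3555, 2573, 1606, 1602 and 1882 CPM in members with both genes of h1, h8, h3, h5 and h9, and at 1169, 1051, 751, 202 and 658 in those with Arg1 alone. The groups did not overlap, and the difference was 1.80 ± 0.23 (adjusted p = 0.00156). Ndrg1, a gene induced by hypoxia and metal stress, rose by 1.70 ± 0.32, Gapdh by 0.97 ± 0.17, Ldha by 0.93 ± 0.18 and the cytokine gene Mif by 0.90 ± 0.17. Egln3 and Hilpda (1.38 ± 0.29 and 1.27 ± 0.26) both missed the threshold at an adjusted p of 0.0528.

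Slc7a2 was the arginine gene that rose, by 1.63 ± 0.24 (adjusted p = 0.0051). It stood at 462, 883, 433, 418 and 720 CPM with both genes and at 141, 277, 129, 289 and 291 with Arg1 alone. Cd274 rose as well, by 1.51 ± 0.29 (adjusted p = 0.034), with 823, 866, 433, 575 and 304 against 294, 472, 306, 72.2 and 84.6. Slc7a2 and Cd274, which were higher in members than in comparison cells, were thus higher still in the members that carried Nos2.

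The MHC class II list fell at 5 of 7 genes, with a median of -1.59. Cd74 stood at 568, 1384, 1185, 1776 and 332 CPM in members with both genes and at 2221, 3558, 5151, 5127 and 3243 in members with Arg1 alone (-1.80 ± 0.22, adjusted p = 0.000341), and the groups did not overlap. H2-Ab1 fell by 1.59 ± 0.28, H2-Aa by 1.79 ± 0.33, H2-DMa by 1.12 ± 0.26 and H2-DMb1 by 1.44 ± 0.31. H2-Eb1 was lower in 4 of 5 hashtags (-1.47 ± 0.41, adjusted p = 0.0584). Batf3, a dendritic cell factor, fell by 3.66 ± 0.76.

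**Figure D4:**
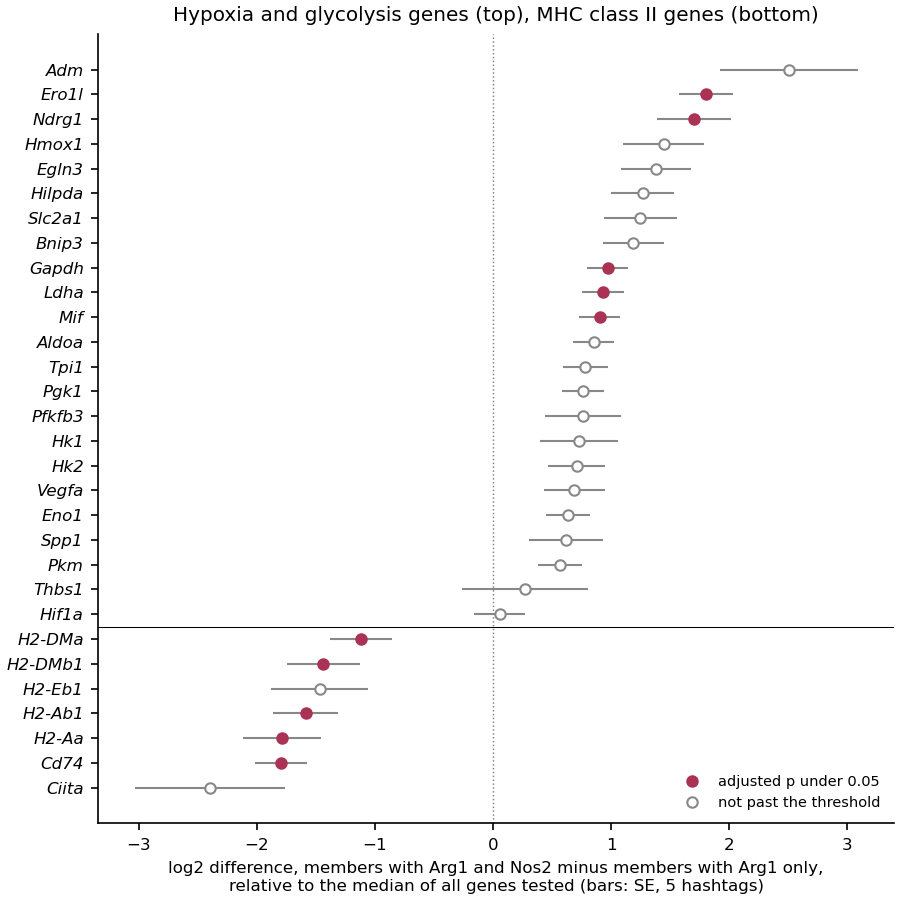
Log2 difference between members with Arg1 and Nos2 and members with Arg1 alone for the hypoxia and glycolysis genes and the MHC class II genes, relative to the median gene, with bars for 1 SE of the edgeR estimate over 5 hashtags and filled points for an adjusted p under 0.05. The 23 hypoxia genes lie above 0, of which 5 pass, and the 7 class II genes lie below 0, of which 5 pass.

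The largest rises seen in every hashtag were those of Flrt3 and Lhfpl2 (2.13 ± 0.46 and 2.13 ± 0.44), Raph1, a regulator of the actin edge (1.98 ± 0.28), Grina (1.75 ± 0.21), Fnip2 (1.72 ± 0.37) and Mtss1 (1.71 ± 0.33), beside Ero1l, Ndrg1, Slc7a2 and Cd274. Among the falls, Tmem176b was at 0 UMIs in every hashtag of the members with both genes and at 31.8 to 89.8 CPM with Arg1 alone, and Tmem176a fell by 4.14 ± 0.79. The falls also included the lectin receptor genes Mgl2 (-3.78 ± 0.66) and Mrc1 (-4.87 ± 0.88, 1 cell with a UMI) and the eosinophil attractant Ccl24 (-2.01 ± 0.48). The other falls named by the rule were Hps3, Timp2, Cbfa2t3, F11r and Acp5, and that of Acp5 rested on a single cell described in the closing section.

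None of the 4 label markers passed between these groups, and of the 21 cytokine and chemokine genes tested only Ccl24 did. Ptgs2 was at 1.40 ± 0.51 (adjusted p = 0.322), Clec4e at 1.07 ± 0.29 (adjusted p = 0.17), Slfn4 at 1.28 ± 0.41 (adjusted p = 0.26) and Cxcl3 at -0.11 ± 1.19 (adjusted p = 0.952). Tnf, Ccl2 and Inhba had values of 1.47 ± 0.48, 1.83 ± 0.48 and 2.07 ± 0.52 that did not pass. The median depth was 9205 UMIs in members with both genes and 8169 in members with Arg1 alone, and deeper cells are more likely to show a Nos2 UMI. By hashtag the cells with both genes were deeper in h1, h8 and h5 and shallower in h3 and h9. They also held more Arg1, at 27.6, 78.8, 75.8, 63.2 and 82.5 UMIs per cell in h1, h8, h3, h5 and h9. Members with Arg1 alone held 26.7, 39.4, 33.4, 21.5 and 80.6. The part of Arg1 level in the differences between these groups was not tested.

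The share of Csf1r cells that were members addressed whether Bmal1 WT altered how many such cells there were. It was 27.7% in h1, 23.5% in h7 and 30.1% in h8 of Empty vector, and 25.8% in h3, 15.4% in h5 and 19.0% in h9 of Bmal1 WT. The means were 27.1 ± 3.36% and 20.1 ± 5.27% (SD, n = 3 each) and overlapped, with p = 0.2 by the exact permutation test (two-sided), for which 0.1 is the smallest p of 3 against 3. Of all cells with 1 hashtag, members made up 5.07 ± 1.54% and 4.26 ± 1.74% (exact permutation p = 0.7). Of gate cells, 50.6 ± 6.05% and 51.4 ± 7.04% had Arg1, and the hashtags of the groups overlapped. Arg1 was one of the genes that chose the members, so this share is a description with no test.

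Nos2 was found in 22.1% of the members of h1, 4.35% of h7 and 18.5% of h8, and in 28.0% of h3, 42.9% of h5 and 33.3% of h9. The Bmal1 WT hashtags were all above those of Empty vector, with means of 34.7 ± 7.53% and 15.0 ± 9.37% (SD, n = 3 each). Nos2 was one of the genes that chose the members, so this is a description with no test. The members of Bmal1 WT were also deeper, with median UMIs of 10942, 9138 and 9367 in h3, h5 and h9 against 7477, 8548 and 7894 in h1, h7 and h8. As an alternative, cells under 2000 UMIs were left out, 615 in Empty vector and 379 in Bmal1 WT. With the other cells thinned to 2000 UMIs and the rule applied again, the members numbered 51, 21 and 53 in h1, h7 and h8. They numbered 30, 14 and 6 in h3, h5 and h9. Their Nos2 shares were 17.6%, 4.76% and 5.66% in the former and 16.7%, 28.6% and 33.3% in the latter, which overlapped. These shares rested on 9, 1, 3, 5, 4 and 2 cells with Nos2.

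**Figure D5:**
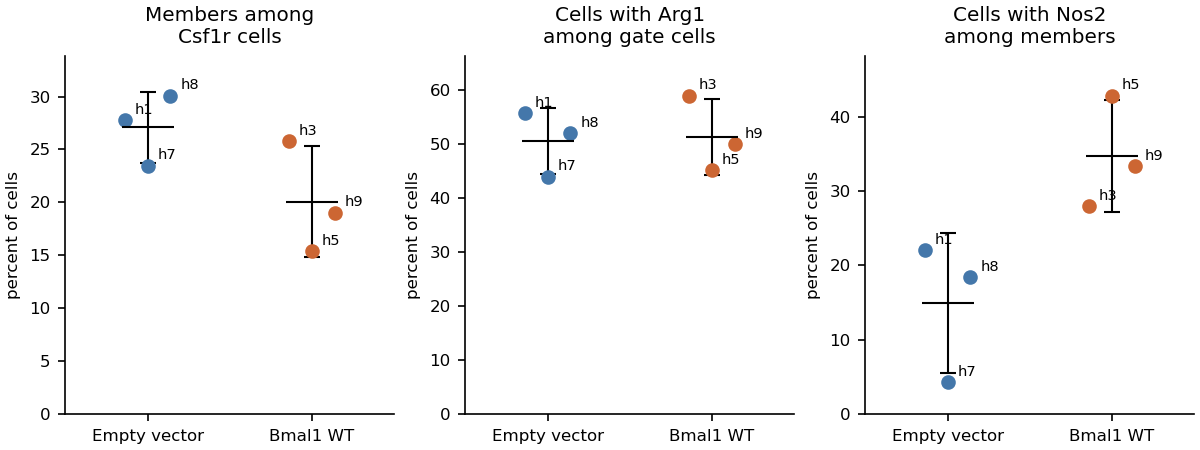
Shares by hashtag, in percent, of members among Csf1r cells, of cells with Arg1 among gate cells and of members with a Nos2 UMI, with 1 point a hashtag, a bar at each group's mean and whiskers of 1 SD (n = 3). The groups overlap for the share of members (means 27.1 and 20.1%) and the share with Arg1 (50.6 and 51.4%), and do not overlap for the share of members with Nos2 (15.0 and 34.7%).

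No gene separated the members of Bmal1 WT from those of Empty vector at the threshold. Of 5227 genes tested by edgeR, 0 passed (0%), the smallest adjusted p was 0.601, and 406 had an unadjusted p under 0.05 (7.77%). DESeq2 called 3 higher and 2 lower, and without h1 edgeR called 1. In 857 genes (16.4%) the hashtags of the groups did not overlap. The label markers were among those that overlapped, with Ptgs2 at 0.47 ± 0.39, Slfn4 at -0.22 ± 0.68, Clec4e at 1.02 ± 0.66 and Cxcl3 at 2.48 ± 1.69 (adjusted p = 0.73). Without the filter on low counts Cxcl3 was called (2.47, adjusted p = 8.63e-19), with 54.9% of its UMIs from 1 cell.

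The genes with the smallest p in each direction are given as values, none of which passed. Ctsl, which encodes the lysosomal protease cathepsin L, stood at 281, 178 and 189 CPM in h1, h7 and h8 and at 449, 671 and 828 in h3, h5 and h9 (1.63 ± 0.29, adjusted p = 0.601). S100a11, a calcium-binding protein, stood at 390, 364 and 474 against 722, 979 and 1199.8 (1.29 ± 0.23). The others with higher values in Bmal1 WT were Pilra, S100a10 and Slc37a2, at 1.41 ± 0.27, 1.06 ± 0.21 and 2.23 ± 0.50.

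On the lower side, Gatm, which makes the creatine precursor from arginine, stood at 1002, 3028 and 1818 CPM in Empty vector and at 624, 458 and 674 in Bmal1 WT (-1.66 ± 0.36, adjusted p = 0.601). Flt1, a receptor for vascular growth factors, stood at 173, 339 and 355 against 98.4, 94.7 and 70.2 (-1.61 ± 0.34). Tgm2, the tissue transglutaminase, stood at 2424, 2490 and 2897 against 1139, 505 and 1298 (-1.34 ± 0.30). The remaining ones were Hk3 and Prkcd, at -1.74 ± 0.37 and -1.20 ± 0.27. The hashtags did not overlap in any of these 10 genes.

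Over the lists, 0 genes were called in any. Of the 18 interferon genes, 16 lay below the median gene (list median -0.69), 4 had an unadjusted p under 0.05 and in 4 the hashtags did not overlap. Summed, the list stood at 5493, 2262 and 6458 CPM in h1, h7 and h8 and at 3354, 2590 and 1368 in h3, h5 and h9, so that h7 lay among the Bmal1 WT values. Few genes lay above the median gene in some other lists as well. They were 2 of 12 transcription factors (list median -0.38), 1 of 8 checkpoint genes (-0.33) and 1 of 7 MHC class II genes (-0.24). In the pattern recognition list 11 of 13 genes lay above the median gene (0.74), and in the hypoxia list 17 of 23 (0.22). Of the tested clock genes, Bhlhe40 had a value of -0.56 ± 0.26 (adjusted p = 0.624). Members' levels of Arg1 and Nos2 by hashtag are those given at the start, where the groups overlapped for both genes.

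Whether the members differed from the comparison cells by another amount in Bmal1 WT than in Empty vector was tested as an interaction. Against gate cells without Arg1 or Nos2, 0 of 7366 genes passed (edgeR, 315 at an unadjusted p under 0.05), and between members with both genes and Arg1 alone 0 of 4848 (160). Against all other Csf1r cells, 3 of 9221 passed (346 at an unadjusted p under 0.05), among them Ccl2. Ccl2 in the other Csf1r cells stood at 1194, 117 and 730 CPM in h1, h7 and h8 and at 257, 270 and 162 in h3, h5 and h9, while the members' values, given above, overlapped between the groups.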

How the data were processed

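Single-cell RNA was measured in 2 libraries with hashtag antibodies. The authors deposited raw UMI counts per gene and barcode, made with Cell Ranger 6.1.2 per the file headers on mm10 per the labels, without normalization. Annotation and strand setting are not given in the sources used here. Each matrix held 31053 genes, and 30934 identifiers were found in GENCODE M21. Of 6932 barcodes, with 34232927 UMIs in Empty vector and 39561569 in Bmal1 WT, those with at least 200 genes and at most 20% mitochondrial UMIs were kept. Hashtags were assigned by a Gaussian mixture of 2 components per hashtag (scikit-learn 1.9.0). The 1054 cells with no hashtag and the 470 with several stayed out of all sums over hashtags, which also removed doublets that joined replicates of a library. No other doublet caller was run.

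The members, the gene lists and the tests were chosen with earlier results of these data known. UMIs were summed per hashtag and class and tested with edgeR 4.0.16 in R 4.3.3 (quasi-likelihood, scaling by total UMIs, genes with at least 50 UMIs over the sums, Benjamini-Hochberg threshold 0.05), with hashtag as a block where classes of cells were compared, since each hashtag gave both classes. The 14 genes of the rule were left out. The standard error is the log2 difference divided by the root of the F statistic. The median log2 difference was -0.25 against other Csf1r cells, -0.23 against gate cells, -0.18 between members with both genes and Arg1 alone, and -0.07 between groups, and it was subtracted from each printed value. Standard errors and p-values refer to the values before this subtraction. Levels are CPM, that is UMIs of the gene per 1000000 UMIs of the sum, and levels of different genes are not corrected for length, which 3' counts do not need. Shares were compared by exact permutation tests (scipy 1.17.1). Alternatives were DESeq2 1.42.0, TMM scaling, other filters, thinning to 2000 UMIs and leaving out each hashtag, and the scripts were tested on simulated data. Genes were named as the 10 largest changes in each direction that passed and had the same sign in every hashtag, or else the 5 smallest p-values, plus examples from the lists and the label markers. Some genes that this rule named are not reported here.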

Additional observations from a re-analysis of the deposited data

Results flagged for a closer look

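The difference between members and other Csf1r cells was itself different between the libraries for 3 of 9221 genes (edgeR interaction, adjusted p under the threshold). For Ccl2 the log2 difference was larger in Bmal1 WT than in Empty vector by 2.30 (adjusted p = 0.000235), with the levels of the other Csf1r cells lower in h3, h5 and h9 than in h1 and h8. For Retnla, a gene of alternatively activated macrophages, the value was -8.16 (adjusted p = 1.94e-05). Its members stood at 0, 165 and 0 CPM in h1, h7 and h8 and at 1.67, 0 and 0 in h3, h5 and h9, against 0.425, 163, 0, 414, 480 and 68.8 in the other cells, and 4 members held it. For Rnase2a, an eosinophil-associated ribonuclease gene, the value was -9.26 (adjusted p = 0.00821), with members at 3.90, 443, 3.56, 0, 0 and 0 CPM against 0, 136, 0.634, 22.2, 36.0 and 13.2. It was found in 6 members, and 84.8% of its UMIs came from 1 cell of h7. The size of the values for Retnla and Rnase2a depends on the prior count, since members of Bmal1 WT were at or near 0. Library and group cannot be told apart in any of the 3.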

How the results depend on the processing

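The hashtag with the fewest members held 12 cells and Nos2 was seen at a median of 2 UMIs. No paired analysis was possible for Bmal1 WT against Empty vector because the labels give no pairs between their replicates. Without the replicate block the calls numbered 837 against other Csf1r cells, 673 against gate cells and 8 between members with both genes and Arg1 alone. Thinned to 2000 UMIs they numbered 705, 446 and 26, and DESeq2 gave 839 against other Csf1r cells and 5 between the groups. C1q-high cells alone as the comparison gave 382. Without the filter on low counts there were 146 calls between both genes and Arg1 alone and 103 between the groups, and with at least 2 Arg1 or Nos2 UMIs a member there were 30 of the former. Leaving out 1 hashtag at a time gave 837 to 1455, 604 to 1062, 3 to 63 and 0 to 1 calls in the order of the report. The cause of these shifts was not tested. The share of gate cells with Arg1, an added result, reversed from 0.774 points to -2.70 with hashtags set by centred log counts and -3.81 when thinned, and ranged from -3.04 to 3.89 with 1 hashtag left out. The other shares kept their sign under the alternatives run, where comparisons of 3 against 3 hashtags allow no p under the threshold, and co-detection gave no value with at least 2 Arg1 or Nos2 UMIs, with leave-one-out ranges of -9.89 to -4.69 points of Csf1r cells, -1.79 to -0.122 of all cells, 14.5 to 23.3 for Nos2 in members and 18.2 to 27.5 for co-detection. Single genes that reversed were Rnase2a against other Csf1r cells (-2.83 with C1q under 2, -0.64 by DESeq2, -1.15 against C1q-high cells, -1.37 to 1.26 with 1 hashtag left out), Cxcl10 against C1q-high cells (0.50), Odc1 against gate cells when thinned (0.062), Ly6c2 against gate cells with 1 hashtag left out (-0.22 to 0.24), Cxcl3 between both genes and Arg1 alone (0.35 thinned, 0.069 without the filter, -2.38 to 1.78 with 1 hashtag left out), Slfn4 between the groups (0.034 thinned, -0.75 to 0.48 with 1 hashtag left out) and Cxcl3 between the groups with 1 hashtag left out (-2.41 without h9, to 5.68). Of the named genes' values, 150 of the alternatives against gate cells and 145 between both genes and Arg1 alone lost a call, and 1668 and 508 kept direction and side.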

Other observations

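A single member of Bmal1 WT, in h3, stood apart by genes of osteoclasts, the bone-resorbing relatives of macrophages, and was singled out after its values were seen. It held 38302 UMIs, with 56 of Csf1r, 49 of Arg1 and 0 of Nos2. It carried 951 of the 976 UMIs of Ctsk, the collagen-degrading protease cathepsin K, found in all members (97.4%), 650 of the 665 UMIs of the gelatinase gene Mmp9 (97.7%), 630 of the 838 of Acp5, the tartrate-resistant acid phosphatase (75.2%), 44 of the 67 of the proton pump subunit gene Atp6v0d2 (65.7%) and 9 of the 9 of the receptor gene Oscar. The calls of Mmp9 and Acp5 in the report's comparisons rested on it. Without this cell, an alternative added after seeing the data, the calls numbered 1446 against other Csf1r cells, 1082 against gate cells without Arg1 or Nos2, 42 between members with both genes and Arg1 alone (17 higher, 25 lower) and 0 between the groups.

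The C1q-high Csf1r cells, kept out of the members by the rule, held Arg1 in a larger share of cells than gate cells did, 81.8% against 51.9% (95% exact binomial interval 47.4 to 56.3), at a greater median depth of 13225 UMIs. Their summed MHC class II genes stood at 15474 to 37229 CPM over the hashtags, against 4086 to 17127 in the members, and their summed hypoxia and glycolysis genes at 11591 to 19535 against 16081 to 32149. Csf1r cells with Ace or Adgre4 stood at 4002 to 12374 for class II and 4938 to 11608 for hypoxia. These classes differ by genes of the rule, and the sums are given as descriptions.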
